A study of Homo sapiens with 12 samples.

Results

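The RNAs described here are the long intergenic noncoding RNAs that carry a LINC symbol, the systematic name given to a long noncoding RNA of known position that has no name taken from its function. Members were selected on their symbol, LINC and digits alone, and on a mean level of at least 0.5 CPM (counts on the gene per 1000000 counts on all genes of that library) over the 12 libraries. The count tables list 2184 such symbols, 963 of them with at least 1 read in any library, and 149 reached the limit. The mean was taken over treated and control libraries alike. The cells were MNNG/HOS, named HOS-MNNG in the labels, a human osteosarcoma line that is a chemically transformed derivative of HOS. They received the solvent DMSO or 300 nM NXP800, an oral small molecule under study as an activator of the kinase GCN2, and RNA was taken after 6 h or after 24 h. Each of the 4 groups (DMSO 6 h, NXP800 6 h, DMSO 24 h and NXP800 24 h) held 3 libraries of polyadenylated RNA from this single line, so each time had its own DMSO control. No genetic change is named for any group.

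Long intergenic noncoding RNAs are transcribed by RNA polymerase II from their own promoters, are often spliced and polyadenylated, and are not known to code for long proteins, although a few yield small peptides. Many are confined to few cell types and present at low copy number, many stay on chromatin, and only a minority has a tested function. GCN2 phosphorylates the initiation factor eIF2alpha, which lowers general translation and favours translation of ATF4. ATF4 is a transcription factor that binds composite C/EBP-ATF response elements in the promoters of stress genes, and noncoding genes with such elements can be read out with the protein-coding ones.

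Library depth was even, from 30810614 to 31947656 reads on genes. The osteosarcoma label was set against marker genes fixed for the purpose: RUNX2 had 683 to 1356 counts per library, COL1A1 4658 to 16845, SPARC 2924 to 19399 and VIM at least 106451, whereas SP7 had at most 1, ALPL at most 7 and COL1A2 at most 12. The osteoblast genes SP7 and ALPL were thus close to absent. Of the other lineages, PTPRC (at most 5 counts), CDH1 (at most 2) and PECAM1 (5 to 29) were low, while KRT8 (15705 to 26761), EPCAM (170 to 325) and CD68 (1931 to 4829) were read in every library. Reads on no annotated gene took 6.66 to 8.14% of read pairs in the 6 h libraries and 2.73 to 3.67% in the 24 h libraries, and the ranges did not separate NXP800 from DMSO at either time.

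Promoter windows were available for 108 of the 149 members from RefSeq (GRCh38.p14, 250 bases before to 50 bases after each start). The core of the C/EBP-ATF response element, TGATGNAA on either strand, was present in the window of 6 members (5.56%), against 4.46% of the 27305 genes in the promoter table and 2.95% of the tested genes that have a window. The 6 are LINC00623, LINC02086, LINC02535, LINC02806, LINC02970 and LINC02983. By the test described below, 4 of the 39 members with a window that increased at 6 h held it (10.3%), against 4.49% of the 3141 tested genes with a window that increased at that time and 9.54% of the 702 that did so over 2-fold. At 24 h it was 4 of 38 (10.5%), against 3.63% of 3413 and 6.09% of 722 genes. Among members that decreased at 6 h, 1 of 15 held it (6.67%), and among those that passed in neither direction 1 of 54 (1.85%). At 24 h these were 0 of 13 and 2 of 57 (3.51%). LINC02983, a carrier that increased at 24 h, reached the 0.5 CPM limit through NXP800 libraries. With 4 carriers a time among the increased members, these shares are a description. The 4 windows below belong to LINC02806 and LINC02970, which gained the most reads among carriers, and to LINC02983 and LINC00623, the other carriers that increased at 24 h. They are shown 5′ to 3′ in lower case with the match in capitals, from chr1:148279018-148279317, plus strand, chr20:62603392-62603691, minus strand, chr7:5428878-5429177, minus strand and chr1:120912967-120913266, plus strand.
LINC02806: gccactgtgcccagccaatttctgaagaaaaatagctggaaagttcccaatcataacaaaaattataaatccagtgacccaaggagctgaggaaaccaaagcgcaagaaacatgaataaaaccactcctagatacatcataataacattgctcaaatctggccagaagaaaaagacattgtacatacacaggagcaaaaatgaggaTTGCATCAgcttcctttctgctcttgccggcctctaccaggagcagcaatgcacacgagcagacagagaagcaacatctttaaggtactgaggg
LINC02970: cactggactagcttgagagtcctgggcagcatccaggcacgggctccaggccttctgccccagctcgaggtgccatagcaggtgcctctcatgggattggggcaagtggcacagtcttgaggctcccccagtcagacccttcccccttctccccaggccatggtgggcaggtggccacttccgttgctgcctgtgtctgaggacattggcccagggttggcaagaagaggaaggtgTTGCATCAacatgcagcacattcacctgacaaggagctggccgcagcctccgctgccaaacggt
LINC02983: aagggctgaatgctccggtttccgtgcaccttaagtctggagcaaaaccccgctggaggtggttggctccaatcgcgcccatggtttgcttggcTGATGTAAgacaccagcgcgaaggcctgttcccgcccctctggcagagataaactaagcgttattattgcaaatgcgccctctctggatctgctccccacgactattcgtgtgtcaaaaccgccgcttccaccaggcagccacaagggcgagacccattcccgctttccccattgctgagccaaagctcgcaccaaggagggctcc
LINC00623: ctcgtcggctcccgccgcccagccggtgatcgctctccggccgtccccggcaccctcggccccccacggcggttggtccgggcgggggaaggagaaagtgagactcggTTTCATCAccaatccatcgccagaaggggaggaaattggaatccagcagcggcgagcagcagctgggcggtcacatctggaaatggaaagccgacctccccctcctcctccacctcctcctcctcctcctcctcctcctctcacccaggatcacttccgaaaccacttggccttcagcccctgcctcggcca

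LINC02806 and LINC02970 read the same 8 letters, TTGCATCA, which are TGATGCAA on the other strand and occur in the windows of 1.08% of the genes in the table. The match began 44 bases before the start of LINC02806 and 14 bases before that of LINC02970. In LINC02983 it began 156 bases before the start. LINC00623 has a pair of annotated starts, and the match lay 142 bases before the downstream one, with none at the upstream one. The window of LINC00941, a strongly responding member discussed below, held no match. The cAMP response element TGACGTCA, searched in the same way, was found in the windows of LINC00265, LINC00630, LINC03006 and LINC03011 (3.70% of members, against 2.25% of the genes in the table and 3.67% of the tested genes). None of these passed the test at 6 h, and LINC03006 and LINC03011 increased at 24 h, by 0.83 and 0.82. A match describes letters in a window, and binding of a factor was not measured.

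The members were mostly scarce. Their median was 1.82 CPM, against 16.2 CPM for the 15979 genes tested, with 35 members at 5 CPM or more, 70 from 1 to 5 CPM and 44 below 1 CPM. All 149 passed the low-count filter of the test, none had a library without reads, and 120 had at least 10 counts in every library. The 5 members with the most reads, LINC02693, LINC00205, LINC00674, LINC02806 and LINC00673, together took 28.5% of all member counts. These figures are shares of reads, not levels per transcript length. At the limit, LINC00852, LINC02320 and LINC03021 lay just inside with 0.515, 0.521 and 0.522 CPM, and LINC02043, LINC01301 and LINC00240 just outside with 0.486, 0.481 and 0.477 CPM. Because the limit was set on the mean of treated and control libraries, 7 members with means below 0.5 CPM in both DMSO groups reached it through NXP800 libraries (LINC00663, LINC01096, LINC01426, LINC01460, LINC02021, LINC02323 and LINC02983), and 3 below it in both NXP800 groups reached it through DMSO libraries (LINC02320, LINC02870 and LINC03021), so that a difference was built into their choice, whereas 112 were at 0.5 CPM or more in every group.

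Positions in RefSeq were found for all 149, for 5 of them under a newer symbol (LINC02085 as RDUR, LINC00638 as VESTAR, LINC00888 as SNHG33, LINC00461 as MIR9-2HG and LINC02904 as LY6S-AS1). Intergenic did not always mean remote: the median distance to the nearest protein-coding gene was 21708 bp, 15 members overlapped one, a further 23 lay within 5 kb and 29 lay over 100 kb away. In the GENCODE models available for 143 members, 75 shared exon bases with another gene, 24 of them over more than 20% of their exon length. Whether the reads were counted by strand is not given in the sources used here, so for such members reads of the partner gene cannot be told apart. These shares of exon bases, and those given below, are of GENCODE models. The reads were counted on a RefSeq annotation, in which shared exons were not looked up.

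Summed into a single quantity, the 149 LINC RNAs took a larger share of the reads after NXP800 at both times. At 6 h their summed counts were 626, 608 and 649.8 CPM in the DMSO libraries and 787, 815 and 825 in the NXP800 libraries. The means were 628 ± 20.8 and 809 ± 19.9 (SD, n = 3 each), a ratio of 1.29. At 24 h the values were 559, 566 and 545 in DMSO and 772, 886 and 788 in NXP800, with means of 557 ± 10.5 and 816 ± 61.7 (SD, n = 3 each) and a ratio of 1.46. All NXP800 libraries lay above all DMSO libraries of their time. The exact two-sided permutation test gave p = 0.1 at either time, the smallest that 3 against 3 allows. In TMM-scaled CPM, the scale used for single members below, the ratios were 1.27 at 6 h and 1.37 at 24 h. NXP800 24 h replicate 2, the highest, also had the largest share of reads on no annotated gene among the 24 h libraries (3.67%), and without it the ratio at 24 h was 1.40; its part in the result was not tested.

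**Figure D1:**
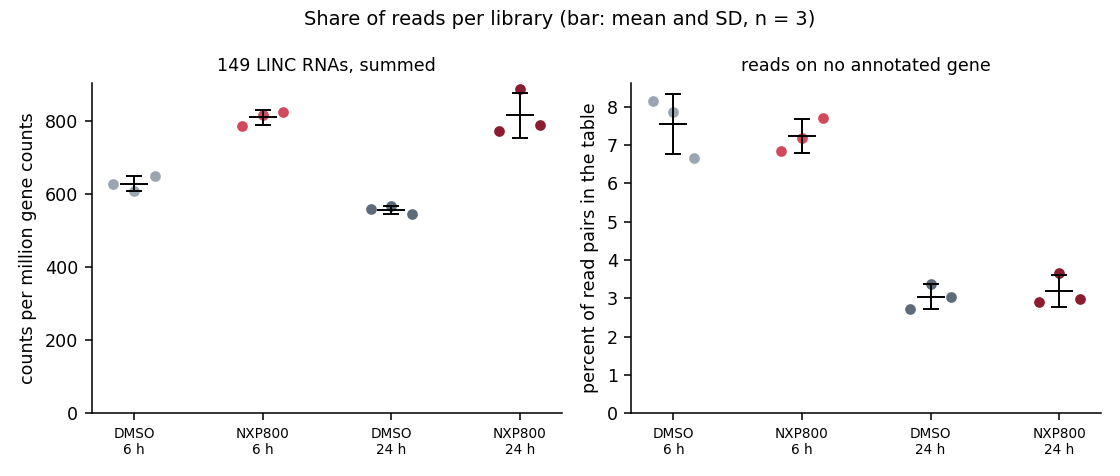
Left, the summed counts of the 149 LINC RNAs in CPM; right, reads on no annotated gene as a percent of the read pairs. Points are libraries of the 4 groups, bars the mean and SD (n = 3). The LINC sums rose from means of 628 to 809 at 6 h and from 557 to 816 at 24 h, while the right panel differs between the times and not between the treatments (7.55 and 7.24% at 6 h, 3.04 and 3.18% at 24 h).

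A few members carried much of this gain. LINC02806 and LINC02693 accounted for 45.5% of the net difference in summed counts at 6 h and 42.8% at 24 h, and with LINC02970 the shares were 56.0 and 48.9%. Gains of all members with a higher mean added up to 247 CPM at 6 h and 288 at 24 h, and losses to -66.2 and -29.4. In bulk RNA, more cells that express a gene and more RNA per cell cannot be told apart.

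The question put to each member was whether NXP800 changed it against the DMSO control of the same time. In edgeR's quasi-likelihood test over all genes, at a Benjamini-Hochberg adjusted p below 0.05, 74 of the 149 members passed at 6 h (49.7%), against 52.8% of all genes tested. The share that passed was near the background, and the split by direction was not even: 53 members increased (35.6%, background 25.0%) and 21 decreased (14.1%, background 27.8%). The median log2 fold change was 0.18 for the members and -0.05 for all genes. Over 2-fold, 24 members increased, where 6.02% of all genes did, and 9 decreased, where 5.23% did. The other long noncoding RNAs tested, 2012 in number, had 21.8% increased and 11.9% decreased with a median of 0.06. Over 2-fold, 250 of these 2012 increased and 113 decreased. Of the 65 tested LINC symbols below 0.5 CPM, 13 increased and 9 decreased over 2-fold. A larger share over 2-fold than that of all genes was thus not particular to the members. Counts of this kind describe the list and carry no test of their own.

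At 24 h, 65 members passed (43.6%, background 56.0%). Of these, 50 increased (33.6%, background 27.5%) and 15 decreased (10.1%, background 28.6%), with a median log2 fold change of 0.30 against 0.00 for all genes. Over 2-fold, 18 increased and 9 decreased, against backgrounds of 6.73 and 7.32%. The other long noncoding RNAs had 25.6% increased, 10.7% decreased and a median of 0.23 at this time. Over 2-fold, 303 of these 2012 increased and 138 decreased, and of the 65 tested LINC symbols below 0.5 CPM 17 and 6 did. Groups that did not overlap gave a like picture: at 6 h all NXP800 libraries lay above all DMSO libraries for 64 members (background 29.3%) and below for 27 (background 32.7%), and at 24 h for 51 (29.0%) and 21 (30.1%). By level, 16 increased and 6 decreased at 6 h among the 35 members at 5 CPM or more, 29 and 7 among the 70 from 1 to 5 CPM, and 8 and 8 among the 44 below 1 CPM. At 24 h the counts were 20 and 1, 20 and 11, and 10 and 3. With the 112 members at 0.5 CPM or more in every group, 43 increased and 15 decreased at 6 h, and 39 and 10 at 24 h. Shares over all genes of like level were not taken. The counts by level and for the 112 members are therefore a description without a background.

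The responses of the times overlapped in part. 31 members increased at both, 6 decreased at both (LINC00641, LINC01089, LINC01588, LINC02701, LINC02870 and LINC02984), 1 increased at 6 h and decreased at 24 h, and 48 passed at neither. Of the rest, 21 increased and 15 decreased at 6 h without passing at 24 h, and 19 increased and 8 decreased at 24 h without passing at 6 h. The like combinations were not counted over all genes, so these counts describe the list and show no trait of the members. Across the 149 members, Pearson's r between the log2 fold changes of the times was 0.56 and Spearman's rho 0.52, with separate libraries at each time; genes of a library are not independent replicates, and over all genes r was 0.65.

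**Figure D2:**
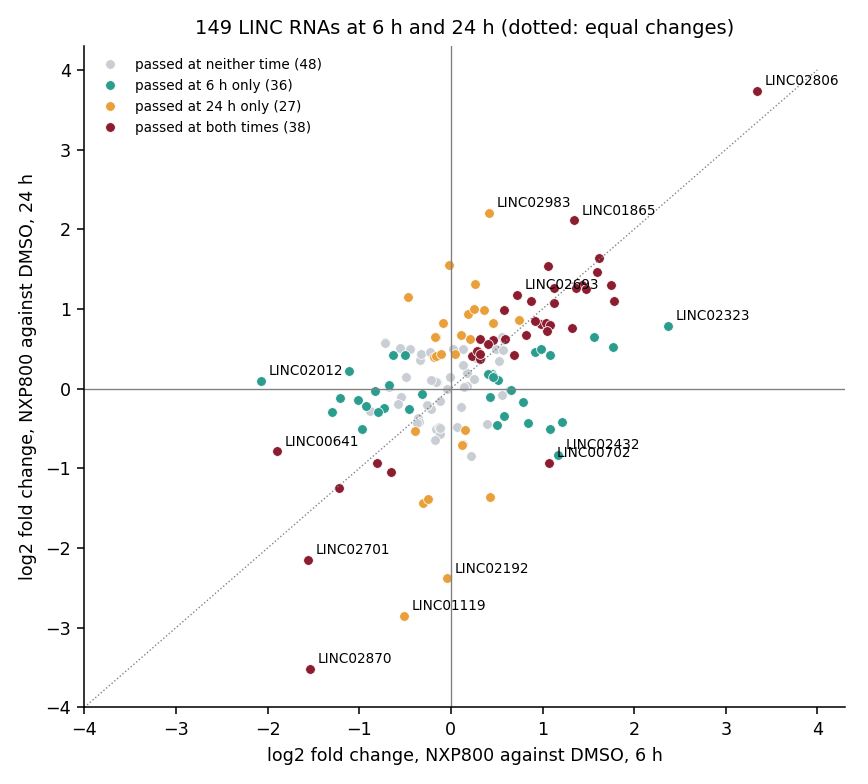
Log2 fold change of NXP800 against DMSO at 6 h (x) and at 24 h (y) for the 149 LINC RNAs, coloured by whether they passed the edgeR test at both times (38), at 6 h alone (36), at 24 h alone (27) or at neither (48). LINC02806 stands at 3.34 and 3.73, LINC02870 at -1.54 and -3.51, and LINC00702 is the single member that passed in opposite directions.

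LINC02806, on chromosome 1 (chr1:148279268-148291861, plus strand), had the largest increase at both times. Its level in TMM-scaled CPM, the scale of all levels per library below, was 4.62, 6.90 and 3.92 in DMSO and 52.0, 52.6 and 51.7 in NXP800 at 6 h. At 24 h it was 4.78, 2.22 and 3.67 in DMSO and 49.2, 46.4 and 46.6 in NXP800. The treated libraries formed a tight group far above the controls. The log2 fold change was 3.34 ± 0.18 (SE) at 6 h (adjusted p = 6.29e-10) and 3.73 ± 0.19 (SE) after 24 h (adjusted p = 2.59e-10), 10.1-fold and 13.3-fold. Of its exon length, 60.7% is shared with other genes, among them LINC01138 on the opposite strand, itself a member, whose log2 fold changes were 0.30 (adjusted p = 0.117) and 0.48 (adjusted p = 0.0108).

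LINC02970, on chromosome 20 (chr20:62594265-62603441, minus strand) and the other carrier of TTGCATCA, was the next in gained reads among members with large fold changes. It stood at 8.04, 9.36 and 9.29 CPM in DMSO and 23.5, 28.5 and 28.9 in NXP800 at 6 h, and at 10.3, 7.19 and 8.55 and 26.6, 23.8 and 21.5 at 24 h. The groups were apart at both times, by 1.60 ± 0.13 (SE) at 6 h (adjusted p = 4.23e-08) and 1.46 ± 0.13 (SE) after 24 h (adjusted p = 8.92e-08). LINC00941 (chr12:30795681-30802711, plus strand), an RNA described as a repressor of keratinocyte differentiation and named here after its values were seen, moved in much the same way without the motif. Its levels were 8.01, 6.46 and 6.22 in DMSO and 18.4, 18.6 and 18.9 in NXP800 at 6 h and 6.52, 5.51 and 5.83 and 15.0, 15.7 and 13.3 at 24 h. The log2 fold changes were 1.43 and 1.30, with adjusted p of 2.73e-08 and 7.90e-08. In GENCODE, all exon bases of LINC00941 are shared with other genes of the same strand.

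LINC02693 (chr17:21528310-21551678, minus strand) held more reads than any other member. At 6 h it had 49.4, 46.0 and 49.6 CPM in DMSO and 74.8, 79.0 and 85.0 in NXP800, and at 24 h 55.9, 45.8 and 52.4 and 123, 113 and 113. The log2 fold change was 0.72 ± 0.08 (SE) at 6 h (adjusted p = 9.78e-07) and 1.17 ± 0.08 (SE) after 24 h (adjusted p = 3.05e-09), larger at the later time by 0.46 (adjusted p of the difference 0.00536). Of the other abundant members, LINC00674 increased by 0.23 at 6 h and 0.41 at 24 h, small shifts whose libraries did not overlap. In GENCODE, 97.5% of the 160 exon bases of LINC00674 are shared with another gene of the same strand. That model is short beside the RefSeq span of 34375 bp. LINC00673, an RNA studied in pancreatic cancer, increased by 0.69 and 0.42 (adjusted p = 2.21e-05 and 0.00186). Its responses differed by -0.27 between the times, with an adjusted p of 0.168, or 0.0208 with the replicate number as a block.

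LINC00662, an RNA on chromosome 19 studied in several cancers, went from 4.12, 4.00 and 4.28 CPM in DMSO to 14.1, 13.8 and 14.6 in NXP800 at 6 h and from 5.52, 4.54 and 4.98 to 11.7, 10.8 and 9.89 at 24 h. Its libraries separated cleanly at both times, with an increase of 1.78 ± 0.11 (SE) at 6 h (adjusted p = 2.11e-09) and of 1.10 ± 0.11 (SE) after 24 h (adjusted p = 2.69e-07). LINC02085, now RDUR, an RNA described as induced through RIG-I during influenza infection, rose at 6 h from 3.01, 3.53 and 3.22 to 10.9, 11.0 and 11.4. At 24 h its values were 2.04, 2.76 and 3.67 in DMSO and 3.50, 5.64 and 3.03 in NXP800, which overlapped. The log2 fold change of LINC02085 was 1.77 at 6 h (adjusted p = 2.19e-06) and 0.53 at 24 h, where the adjusted p was 0.0511 and 0.0193 with the replicate block. Of the GENCODE exon bases of LINC02085, 91.9% are shared with another gene of the same strand. LINC00662 and LINC02085 responded less at 24 h than at 6 h, by -0.67 and -1.24 (adjusted p = 0.00394 and 0.00615).

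Other large increases were in scarce RNAs. LINC02323 had 3 to 13 counts in DMSO and 34 to 42 in NXP800 at 6 h, an increase of 2.37 ± 0.42 (SE) (adjusted p = 1.83e-04). LINC02323 was at 0.5 CPM or more in the NXP800 6 h group alone, the group that brought it over the limit. At 24 h LINC02323 had 3 to 11 and 10 to 19 counts and did not pass. The difference between its responses was -1.58 (adjusted p = 0.0925, 0.0405 with the replicate block). LINC01865 and LINC01629 passed at both times, by 1.34 and 2.11 and by 1.61 and 1.64, on 7 to 9 and 7 to 13 counts in the DMSO libraries at 24 h. LINC00701 went the same way, by 1.74 and 1.30. LINC01460 increased by 1.56 at 6 h (adjusted p = 8.25e-04) and had 0.65 at 24 h without passing (adjusted p = 0.103); it too reached the limit through NXP800 libraries. LINC00963, an RNA described in prostate cancer, increased by 1.06 and 1.53 (adjusted p = 0.00217 and 1.10e-05). It overlaps the coding locus LOC124900275 on the same strand, which changed by 0.41 and 1.56.

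From a list of 14 LINC symbols with a described role, 6 were members. Besides LINC00662, LINC00673 and LINC00963, LINC00665, whose transcript can yield a small peptide, increased by 0.46 and 0.61 (adjusted p = 3.63e-04 and 1.70e-05). LINC00467, also a source of a small peptide, increased by 0.45 at 6 h (adjusted p = 0.0128) and had 0.18 after 24 h (adjusted p = 0.304). LINC01116 went from 2.72, 3.28 and 2.28 in DMSO to 1.75, 1.71 and 2.39 in NXP800 at 6 h, where a treated library lies within the control range, with -0.50 and an adjusted p of 0.0490. Leaving out single libraries took that adjusted p as high as 0.208.

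**Figure D3:**
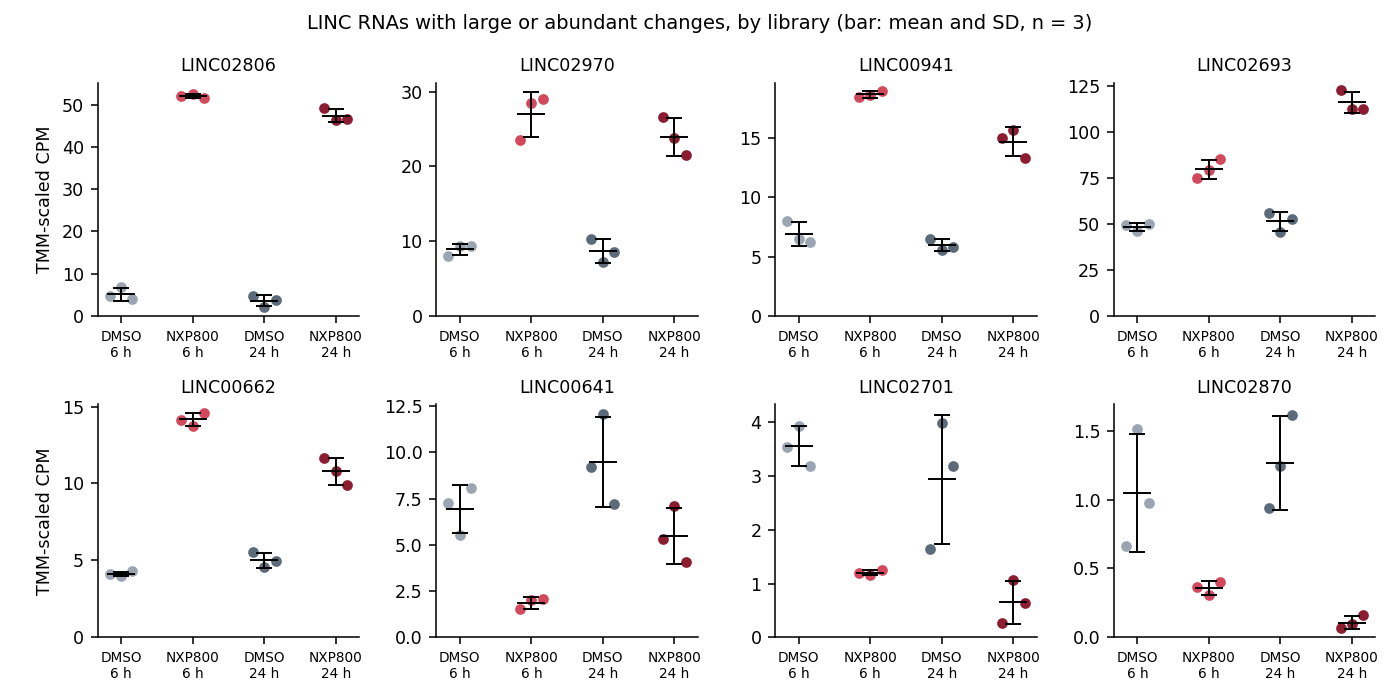
TMM-scaled CPM of 8 LINC RNAs in each of the 12 libraries, in 4 groups, with the mean and SD (n = 3); every y axis starts at 0 and has its own range. LINC02806, LINC02970, LINC00941, LINC02693 and LINC00662 stand higher in NXP800 than in DMSO at both times, and LINC00641, LINC02701 and LINC02870 lower.

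Decreases at both times were fewer. LINC00641 (chr14:21200079-21206900, minus strand) had 7.25, 5.51 and 8.08 CPM in DMSO and 1.50, 1.99 and 2.09 in NXP800 at 6 h. At 24 h it had 9.20, 12.1 and 7.21 and 5.31, 7.08 and 4.08. The groups were apart at both times, with a log2 fold change of -1.90 ± 0.24 (SE) at 6 h (adjusted p = 5.44e-06) and -0.79 ± 0.21 (SE) after 24 h (adjusted p = 0.00422). LINC02701 went from 3.55, 3.94 and 3.19 to 1.20, 1.16 and 1.26 at 6 h (-1.56, adjusted p = 5.76e-04) and from 1.64, 4.00 and 3.19 to 0.264, 1.07 and 0.638 at 24 h (-2.15, adjusted p = 7.46e-05). LINC02984 decreased by like amounts at both times, -1.22 and -1.25 (adjusted p = 4.26e-04 and 0.00140).

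LINC02870, on chromosome 10 (chr10:132445189-132448306, plus strand), had the largest decrease at 24 h. It was read 21 to 48 times in the DMSO and 10 to 13 times in the NXP800 libraries at 6 h, and 28 to 47 and 2 to 5 times at 24 h. The decrease was -1.54 ± 0.35 (SE) at 6 h (adjusted p = 0.00134) and -3.51 ± 0.43 (SE) after 24 h (adjusted p = 3.57e-06), with a difference between the times of -1.97 (adjusted p = 0.0233). LINC02870 is among those that reached the limit through the DMSO libraries. Leaving out single libraries took the adjusted p of that difference to at most 0.0644.

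Whether the response of a member at 24 h differed from that at 6 h was tested as a difference of differences. 40 members passed (26.8%, background 25.9%), 21 with a more positive response at 24 h and 19 with a more negative one. Over all genes 1925 were more positive and 2207 more negative. The shares of members were near those of all genes. At 6 h and 24 h the libraries also differ in reads on no annotated gene, and each response is taken against the DMSO libraries of its own time.

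A set of decreases was seen at 6 h and not at 24 h. LINC02012 (chr3:197505262-197509661, minus strand) had 14 to 24 counts in DMSO and 2 to 6 in NXP800 at 6 h, the largest fall at that time (-2.07 ± 0.37 (SE), adjusted p = 2.16e-04). At 24 h the counts were 25 to 28 and 27 to 32, a log2 fold change of 0.10 (adjusted p = 0.774), and the difference between the times was 2.17 (adjusted p = 0.00273). LINC01521 (chr22:31346759-31351155, plus strand) went from 6.18, 5.80 and 7.44 to 2.55, 3.00 and 3.41 CPM at 6 h and had 8.16, 8.34 and 6.28 and 9.18, 9.53 and 7.81 at 24 h. The fall was -1.12 ± 0.16 (SE) at 6 h (adjusted p = 1.76e-05), with 0.22 after 24 h (adjusted p = 0.202, 0.0433 with the replicate block). LINC00205 (chr21:45288052-45297354, plus strand), the second most read member, had 55.9, 47.0 and 53.5 in DMSO and 29.7, 27.6 and 31.1 in NXP800 at 6 h. At 24 h its values, 38.6, 34.5 and 41.5 and 31.8, 36.7 and 44.1, overlapped. Its log2 fold changes were -0.82 (adjusted p = 8.31e-06) and -0.02 (adjusted p = 0.859). LINC01703 and LINC01561 also decreased at 6 h, by -1.30 and -1.21, on at most 24 counts a library; the difference between the times passed for neither (adjusted p = 0.130 and 0.116).

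Other members decreased at 24 h alone. LINC02192 (chr16:47849314-47887130, minus strand) had 3.14, 4.10 and 3.01 in DMSO and 2.46, 3.94 and 3.53 in NXP800 at 6 h, which overlapped, and 1.30, 1.51 and 1.92 and 0.264, 0.251 and 0.383 at 24 h. The decrease at 24 h was -2.38 ± 0.30 (SE) (adjusted p = 5.94e-06). LINC01119 had 19 to 23 counts in DMSO and 2 to 4 in NXP800 at 24 h, a decrease of -2.85 ± 0.38 (SE) (adjusted p = 9.91e-06), and at 6 h -0.51 without passing (adjusted p = 0.107). LINC00513, an RNA linked to interferon signalling in lupus, had 0.43 at 6 h (adjusted p = 0.107) and -1.36 after 24 h (adjusted p = 2.05e-04). LINC00342 decreased by -1.39 after 24 h (adjusted p = 3.26e-04). LINC00261, known as a regulator of endoderm differentiation, did so by -1.43 (adjusted p = 2.85e-04).

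LINC00702 (chr10:4206876-4243912, minus strand) was the member that passed in opposite directions. Its levels were 1.14, 1.13 and 0.881 CPM in DMSO and 2.24, 2.32 and 2.06 in NXP800 at 6 h, and 0.903, 0.840 and 1.03 and 0.396, 0.439 and 0.606 at 24 h. It increased by 1.07 ± 0.20 (SE) at 6 h (adjusted p = 2.56e-04) and changed by -0.94 ± 0.25 (SE) at 24 h (adjusted p = 0.00413), without overlap of the groups at either time. LINC02432 had a like shape with more spread, at 1.17 at 6 h (adjusted p = 0.0125) and -0.84 after 24 h (adjusted p = 0.0738, 0.00254 with the replicate block).

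Increases seen at 24 h and not at 6 h included LINC02983, the carrier of TGATGTAA printed above (chr7:5426277-5428927, minus strand). It had 6 to 14 counts in DMSO and 11 to 14 in NXP800 at 6 h, and 8 to 15 and 45 to 59 at 24 h. The log2 fold change was 0.41 ± 0.36 (SE) at 6 h (adjusted p = 0.351) and 2.21 ± 0.29 (SE) after 24 h (adjusted p = 6.81e-06), and the difference between the times was 1.79 (adjusted p = 0.0108). Of its exon bases, 32.8% are shared with genes of the opposite strand. LINC01426 behaved alike on 10 to 12 and 29 to 39 counts at 24 h, with 1.56 (adjusted p = 2.51e-04) against -0.02 at 6 h (adjusted p = 0.961). LINC02983 and LINC01426 were at 0.5 CPM or more in the NXP800 24 h group alone, and so reached the limit through the group in which they are high. LINC00638, now VESTAR, increased by 1.31 (adjusted p = 8.26e-05) and LINC01356 by 1.14 (adjusted p = 0.00598) at 24 h. The other carriers of the response element core were less changed: LINC00623 increased by 0.32 and 0.62, LINC02535 increased by 0.58 at 6 h alone, and LINC02086 decreased by 0.79 at 6 h (adjusted p = 0.0188).

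**Figure D4:**
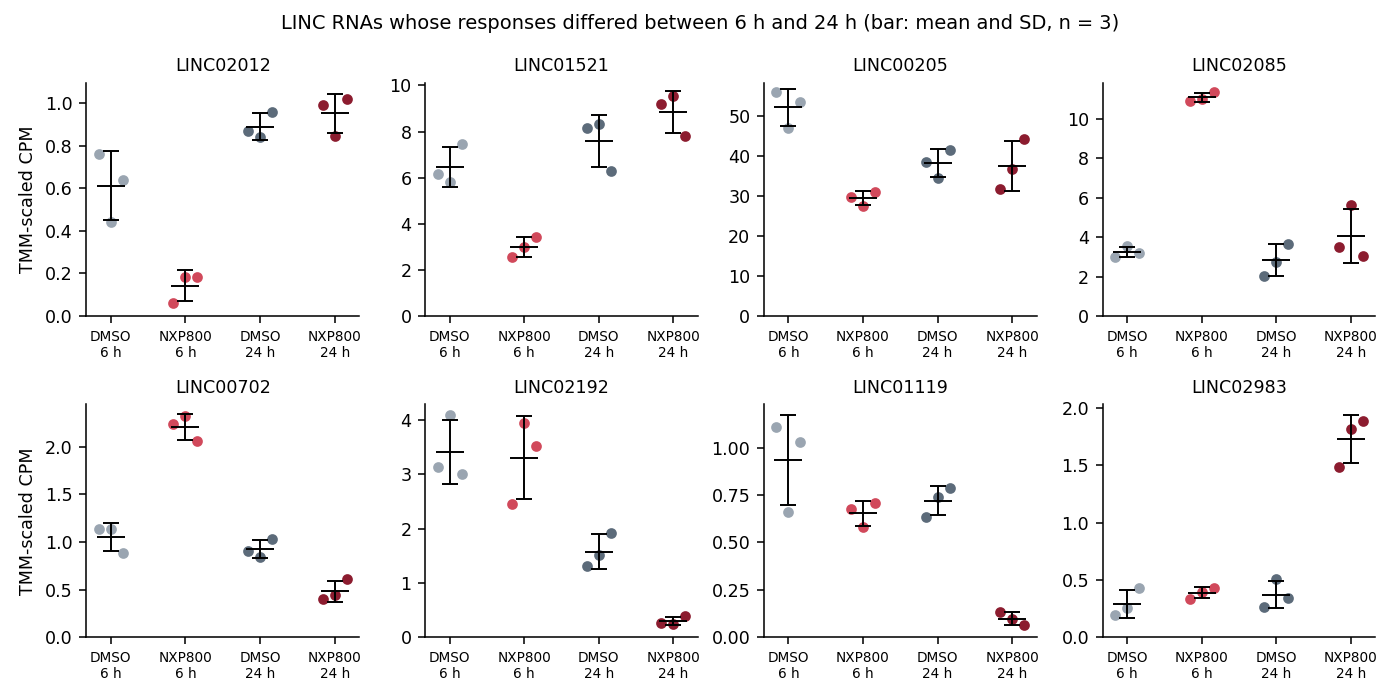
TMM-scaled CPM of 8 LINC RNAs whose responses differed between the times, in each of the 12 libraries, with the mean and SD (n = 3); every y axis starts at 0 and has its own range. LINC02012, LINC01521 and LINC00205 are lower in NXP800 at 6 h with overlapping groups at 24 h, LINC02085 and LINC00702 are higher at 6 h, LINC02192 and LINC01119 are lowest in NXP800 at 24 h, and LINC02983 is highest there.

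A long noncoding RNA close to a coding gene can share its promoter or read-through transcription, so each member was set beside its nearest protein-coding gene, which was itself tested for 110 members. Over these pairs the log2 fold changes of member and neighbour had r = 0.17 at 6 h and 0.05 at 24 h, and over the 32 pairs that overlapped or lay within 5 kb 0.19 and 0.35, weak relations within shared libraries. Of the 40 members that increased at 6 h and had a tested neighbour, 15 had a neighbour that increased and 11 one that decreased. Of the 18 that decreased, 3 had a neighbour that increased and 8 one that decreased. At 24 h, 17 of the 37 that increased had a neighbour that increased and 12 one that decreased, and for the 12 that decreased these were 4 and 3. Over all protein-coding genes tested, 25.7% increased and 31.1% decreased at 6 h, and 28.1 and 32.3% at 24 h.

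Some pairs lie close together. LINC02012 starts 122 bp beyond the end of BDH1, the gene of a mitochondrial ketone body enzyme, on the same strand. BDH1 had 22.2 ± 2.91 CPM in DMSO and 9.73 ± 1.29 in NXP800 at 6 h (SD, n = 3 each) and fell by 1.19 (log2, adjusted p = 4.02e-06), next to 2.07 for LINC02012. At 24 h BDH1 changed by -0.39 (adjusted p = 0.0213). LINC01521 lies head to head with PATZ1, a zinc finger transcription factor, with 413 bp between them. PATZ1 went from 62.3 ± 0.926 to 35.5 ± 2.97 CPM at 6 h (-0.81, adjusted p = 1.88e-07) and had 0.15 after 24 h (adjusted p = 0.0778), so both genes of the pair were lower at 6 h alone. LINC00205 lies 157 bp head to head from POFUT2, a protein O-fucosyltransferase, which decreased by less at 6 h (-0.30, adjusted p = 0.00283).

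In other close pairs 1 gene passed the test at 6 h and the other did not, while both passed in the same direction at 24 h. Described here are 4 of them, chosen after their values were seen. LINC00847 with ZFP62, LINC01410 with LOC107987020, LINC01560 with ZNF41, LINC00863 with NUTM2D and LINC00294 with TCP11L1 had the same pattern. LINC00641 lies 2247 bp beyond HNRNPC, an abundant RNA-binding protein gene on the same strand, which had -0.02 at 6 h (adjusted p = 0.783) while LINC00641 fell by 1.90, and -0.24 at 24 h (adjusted p = 0.00535). LINC01426 lies 2915 bp tail to tail from the transcription factor gene RUNX1, which increased at 6 h by 1.28 (adjusted p = 1.17e-08) when LINC01426 had -0.02. At 24 h both increased, RUNX1 by 0.80 (adjusted p = 1.52e-06) and LINC01426 by 1.56. LINC02983 lies 2443 bp before TNRC18, which increased by 0.58 at 6 h, when LINC02983 did not pass, and by 0.52 at 24 h, when LINC02983 increased by 2.21. LINC02983 and LINC01426 reached the limit of 0.5 CPM through the NXP800 24 h libraries. For them an increase at 24 h was thus built into their choice, and these pairs are a description. LINC00261 lies 2356 bp beyond the end of the endoderm factor gene FOXA2. FOXA2 had 0.32 at 6 h (adjusted p = 0.00311) and -0.59 after 24 h (adjusted p = 1.26e-05), next to -0.30 and -1.43 for LINC00261. Both were lower at 24 h. Close pairs also moved in opposite directions. ZFP14, on the same strand 2700 bp from LINC00665, changed by -1.07 at 6 h (adjusted p = 1.95e-04) while LINC00665 increased by 0.46. ANXA11, 1902 bp head to head from LINC00857, changed by -0.30 at 24 h (adjusted p = 0.00562). LINC00857 increased by 0.43 at that time (adjusted p = 0.00485). These pairs were likewise chosen after their values were seen.

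**Figure D5:**
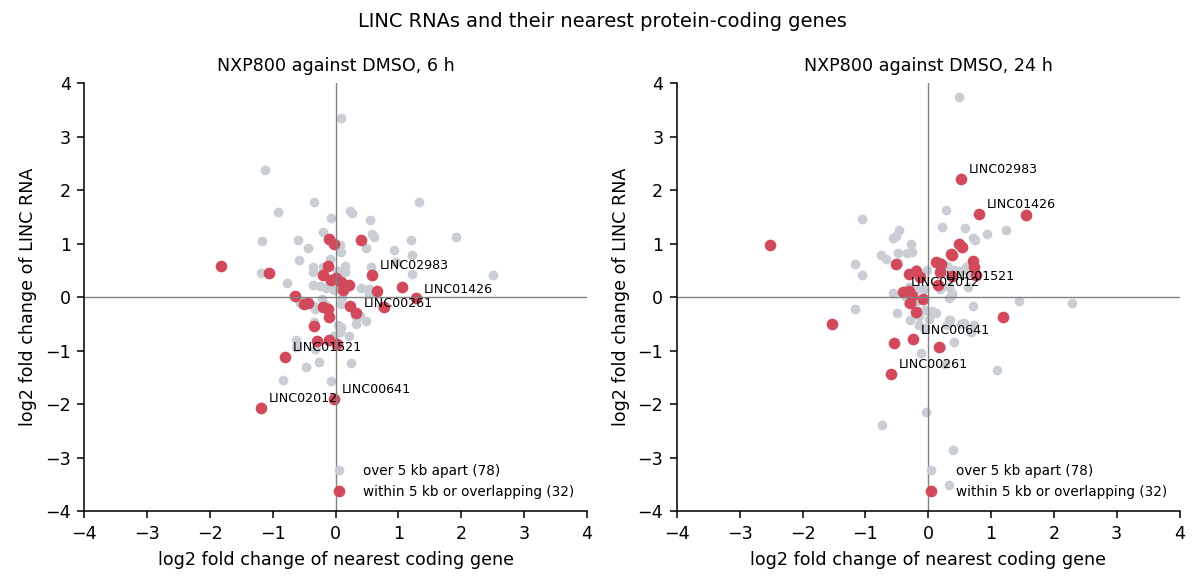
Log2 fold change of the nearest protein-coding gene (x) against that of the LINC RNA (y) for NXP800 against DMSO at 6 h (left) and 24 h (right), over 110 pairs; red points are the 32 pairs within 5 kb or overlapping. The points form no line (r = 0.17 and 0.05 over all pairs), and the labelled pairs include LINC02012 and LINC01521, where both genes fell at 6 h.

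For comparison, 24 long noncoding RNAs with other symbols had been listed, of which 18 were tested. At 6 h 5 increased (27.8%, background 25.0%) and 4 decreased (22.2%, background 27.8%). At 24 h 5 increased (27.8%, background 27.5%) and 2 decreased (11.1%, background 28.6%). Median log2 fold changes were 0.15 and 0.14. DANCR and FIRRE decreased at both times. MALAT1 and MIR22HG increased over 2-fold at 24 h, where the libraries of MIR22HG overlapped. NORAD, a cytoplasmic RNA that was first named LINC00657, was among those that increased at both times.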

How the data were processed

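RNA of 12 MNNG/HOS libraries was sequenced as strand-specific, paired-end polyadenylated RNA libraries on a DNBSEQ-G400. The authors trimmed reads (fastp 0.20.1), aligned them with STAR 2.7.5a to hg38 with a RefSeq annotation (GRCh38.p14) and deposited raw read counts per gene symbol from HTSeq 0.12.4, with no normalization. Counting mode and strand setting are not given in the sources used here. Lines for unassigned reads were left out of library sizes. They held 2.73 to 8.14% of pairs on no gene, 2.10 to 2.43% on several genes and 1.86 to 3.37% aligned to several places.

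Counts were fitted with edgeR 4.0.16 in R 4.3.3 (TMM factors 0.918 to 1.05, filterByExpr, a quasi-likelihood F test on the means of 4 groups, Benjamini-Hochberg over 15979 genes), with contrasts at 6 h, at 24 h and for their difference; DESeq2 1.42.0 was an alternative. The steps were tested on simulated data. CPM for membership used gene totals alone, and levels per library are TMM-scaled. Groups came from the labels, and the dose of 300 nM from the study's methods. Pairs of replicates differed beyond sampling noise (chi-square per degree of freedom 7.95 to 28.6). The labels do not say whether replicates were separate cultures. The paper states for its results in general that they come from at least 3 independent experiments, and gives N = 3 for the RNA-seq. The p-values measure the spread between these libraries. Deviations of DMSO and NXP800 libraries with the same replicate number correlated at 0.224 to 0.439 in all 6 pairs (different numbers, -0.337 to 0.054). Deviations are taken from the mean of 3 libraries, so positive values for the same numbers force the others down on average. The same numbers were read as pairs from the data and not from a stated design. The main test compares group means and did not use this pairing. The replicate number as a block was an alternative, with its counts given below. Named results whose call changes with the block carry both values.

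Named members were the 8 largest rises and 8 largest falls at each time, the 5 largest differences in each direction, the 5 with most reads, those with a described role, the 3 on each side of the limit and any that passed in opposite directions; LINC00941, LINC00623, LINC02535 and LINC02086 were added after their values were seen. The members and lists were chosen with earlier results of these data known. Neighbours are the nearest RefSeq protein-coding genes (GRCh38.p14), and shared exons come from GENCODE.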

Additional observations from a re-analysis of the deposited data

Results flagged for a closer look

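The responses of 21 named members at 24 h and at 6 h differed by edgeR's test of the difference itself (log2 fold change at 24 h minus that at 6 h). The difference was positive for LINC02012 (2.17, adjusted p = 0.00273), LINC02983 (1.79, adjusted p = 0.0108), LINC01356 (1.61, adjusted p = 0.0115), LINC01426 (1.58, adjusted p = 0.0174) and LINC01521 (1.33, adjusted p = 2.57e-04). It was also positive for LINC00641 (1.11, adjusted p = 0.0169), LINC00638 (1.04, adjusted p = 0.0233), LINC01116 (0.92, adjusted p = 0.0295), LINC00205 (0.80, adjusted p = 0.00114) and LINC02693 (0.46, adjusted p = 0.00536). In LINC02012, LINC01521 and LINC00205 this was a decrease at 6 h that was not seen at 24 h, in LINC02983, LINC01356, LINC01426 and LINC00638 an increase that passed at 24 h alone, and in LINC02693 a larger increase. The difference was negative for LINC01119 (-2.34, adjusted p = 0.00199), LINC02192 (-2.34, adjusted p = 2.55e-04), LINC02432 (-2.01, adjusted p = 0.0107), LINC00702 (-2.00, adjusted p = 2.53e-04), LINC02870 (-1.97, adjusted p = 0.0233) and LINC00513 (-1.79, adjusted p = 9.26e-04). It was also negative for LINC02085 (-1.24, adjusted p = 0.00615), LINC00342 (-1.14, adjusted p = 0.0312), LINC00261 (-1.13, adjusted p = 0.0398), LINC02535 (-0.92, adjusted p = 0.0213) and LINC00662 (-0.67, adjusted p = 0.00394). LINC00702 passed in opposite directions at the times. LINC02983 and LINC01426 reached the 0.5 CPM limit through NXP800 libraries and LINC02870 through DMSO libraries. For these members a difference was built into their choice. Single libraries were not tested as outliers within their groups of 3.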

How the results depend on the processing

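No tested result changed sign under an alternative while past the threshold. With a limit of 0.01 on the adjusted p, 47 members passed at 6 h (35 increased and 12 decreased) and 16 responses differed between the times (7 positive, 9 negative). Among members with a mean of at least 1 CPM, 13 decreased at 6 h. Without single libraries, 60 to 74 members passed at 6 h and 61 to 71 at 24 h, with 42 to 55 and 46 to 54 increased and 15 to 22 and 13 to 17 decreased. Responses that differed between the times then numbered 27 to 41 (13 to 25 positive, 14 to 21 negative). The lowest positive count, 13, came without NXP800 6 h replicate 1 and without replicate 2. Of the called members, 47 of 74 at 6 h, 51 of 65 at 24 h and 18 of 40 differences kept their call without any single library. Among named members, the change at 6 h lost its call, with the adjusted p given, for LINC00467 (0.0570 without NXP800 6 h replicate 1), LINC00623 (0.0615 without DMSO 6 h replicate 1 and 0.0554 without NXP800 6 h replicate 3), LINC00852 (0.117 without DMSO 6 h replicate 2, 0.102 without NXP800 6 h replicate 2, 0.0813 without NXP800 6 h replicate 1), LINC01561 (0.111 without DMSO 6 h replicate 3, 0.0638 without NXP800 6 h replicate 3, 0.0524 without NXP800 6 h replicate 2), LINC02086 (0.0998 without NXP800 6 h replicate 2 and 0.0775 without DMSO 6 h replicate 3), LINC02320 (0.143 without DMSO 6 h replicate 3 and 0.0914 without NXP800 6 h replicate 1), LINC02432 (0.0568 without NXP800 6 h replicate 2 and 0.0530 without NXP800 6 h replicate 1) and LINC02535 (0.0741 without DMSO 6 h replicate 2 and 0.0623 without NXP800 6 h replicate 3). The difference between the times lost it for LINC00641 (0.0545 without NXP800 6 h replicate 1), LINC01426 (0.0538 without DMSO 6 h replicate 3), LINC02535 (0.0579 without DMSO 24 h replicate 2 and 0.0539 without DMSO 6 h replicate 2), LINC02870 (0.0644 without NXP800 24 h replicate 1, 0.0522 without NXP800 24 h replicate 2, 0.0501 without NXP800 6 h replicate 3) and LINC02983 (0.0617 without DMSO 6 h replicate 3). More than 3 libraries did so, each alone, for LINC00261, difference (9 libraries, up to 0.0928), LINC00342, difference (5 libraries, up to 0.0976), LINC00638, difference (5 libraries, up to 0.0628), LINC01116, difference (8 libraries, up to 0.0825) and LINC01116, at 6 h (8 libraries, up to 0.208). With the replicate block, which pairs libraries by number, 83 members passed at 6 h (57 increased, 26 decreased), 79 at 24 h (58 and 21) and 52 for the difference (29 and 23). It changed 5 calls of named members, those given with both values in the report, and no other. DESeq2 called 67, 59 and 37. Scaling by library size alone moved the share of positive among called differences from 46.6 to 59.6% over all genes. Over members it went from 52.5 to 61.5%. At 24 h the share increased among called genes went from 49.0 to 58.7%, and among called members from 76.9 to 81.4%. At 6 h these shares went from 47.4 to 49.2% and from 71.6 to 74.3%. The cause was not tested. The summed difference ranged from 148 to 192 CPM at 6 h and from 192 to 281 at 24 h over the alternatives. Members below 1 CPM rest on few reads. Of these 44, 16 passed at 6 h and 13 at 24 h. For the others, not passing does not show that a member was unchanged.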
